A study of Homo sapiens with 6 samples.

Results

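The genes described here carry pyruvate into the mitochondrion and through the citric acid cycle. They are 33 genes taken by symbol from a table of 60664 Ensembl genes, and each symbol, current in the name table, matched exactly 1 identifier. All 33 passed the filter on low counts and so were among the 17638 genes tested. RNA was sequenced from cells kept in DMEM with serum and labelled as HCT8, which is a colorectal cancer line of human origin. The 3 GPT1 libraries came from cells given a plasmid that overexpresses GPT1, and the 3 control libraries from cells given a control plasmid. GPT1, whose gene is GPT, is the alanine aminotransferase of the cytosol: it makes pyruvate and glutamate from alanine and alpha-ketoglutarate, and so shares pyruvate and alpha-ketoglutarate with the pathway measured here. No source says whether the transfection was transient or stable, what promoter drove the insert, or that the 3 libraries of a group came from separate cultures, so p-values measure only the spread between these libraries, which may be technical.

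Pyruvate enters mitochondria through the carrier MPC1-MPC2 and is then either oxidised to acetyl-CoA by the pyruvate dehydrogenase complex or carboxylated to oxaloacetate. Kinases of the PDK family switch the complex off by phosphorylating its E1 alpha subunit, and PDP phosphatases switch it on again. Acetyl-CoA and oxaloacetate form citrate, which is turned by way of isocitrate, alpha-ketoglutarate, succinyl-CoA, succinate, fumarate and malate back into oxaloacetate. In dividing tumour cells the cycle also supplies citrate and aspartate for biosynthesis, and glutamate refills it at alpha-ketoglutarate.

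Of the 33 genes, 6 were called in the GPT1 libraries: PDHB, SDHC and SDHD were higher, and PDK1, SUCLA2 and ME2 were lower. The other 27 did not pass. The 6 calls make up 18.2% of the genes, while 25.1% of all tested genes were called (quasi-likelihood test in edgeR, adjusted p under 0.05 by Benjamini-Hochberg over all 17638 genes). By direction, 9.09% of the 33 were higher, against 10.5% of all tested genes, and 9.09% were lower, against 14.6%. These shares lie near or under the background, so the number of calls is not a result about the pathway. The changes were small. Fold changes on the log2 scale ran from -0.47 (PDK1) to 0.43 (PDHB), and the median was -0.00, beside -0.02 over all tested genes. In size, without regard to sign, the median was 0.13 for the 33 genes and 0.27 for all tested genes, and 25 of the 33 (75.8%) lay under 0.25, compared with 47.5% of all tested genes. The median standard error was 0.096 for the 33 genes and 0.140 for all tested genes. The sizes are thus not compared at equal precision, and whether the pathway is steadier than other genes was not tested.

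RefSeq promoter windows (GRCh38.p14, 250 bases before to 50 after a start) were found for 30 of the 33 genes. Those of 5 of the 6 called genes are printed because they carry the differences described below; SDHC had no window in the table. For PDK1, with 2 windows, the one that holds a searched motif is shown. Capitals mark matches, on either strand, to 7 short motifs: the hypoxia response cores ACGTG and GCGTG, the NRF1 core GCATGCGC, the ETS and GABP core CCGGAAG, the ERR half-site AAGGTCA, the ATF4 and CHOP element TGATGNAA and the antioxidant response core TGACNNNGC.
PDHB, chr3:58433783-58434082, minus strand: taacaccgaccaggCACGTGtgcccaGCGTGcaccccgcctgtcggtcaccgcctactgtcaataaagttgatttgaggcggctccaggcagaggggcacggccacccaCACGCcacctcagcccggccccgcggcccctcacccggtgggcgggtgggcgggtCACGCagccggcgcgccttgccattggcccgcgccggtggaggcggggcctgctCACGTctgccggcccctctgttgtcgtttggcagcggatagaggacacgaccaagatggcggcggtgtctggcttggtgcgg
SDHD, chr11:112086623-112086922, plus strand: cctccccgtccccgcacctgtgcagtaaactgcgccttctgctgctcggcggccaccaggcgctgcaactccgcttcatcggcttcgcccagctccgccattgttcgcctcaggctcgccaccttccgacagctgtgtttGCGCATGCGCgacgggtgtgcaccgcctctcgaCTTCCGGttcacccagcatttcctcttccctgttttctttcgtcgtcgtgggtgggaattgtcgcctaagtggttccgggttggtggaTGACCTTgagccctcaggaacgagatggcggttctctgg
PDK1, chr2:172555840-172556139, plus strand: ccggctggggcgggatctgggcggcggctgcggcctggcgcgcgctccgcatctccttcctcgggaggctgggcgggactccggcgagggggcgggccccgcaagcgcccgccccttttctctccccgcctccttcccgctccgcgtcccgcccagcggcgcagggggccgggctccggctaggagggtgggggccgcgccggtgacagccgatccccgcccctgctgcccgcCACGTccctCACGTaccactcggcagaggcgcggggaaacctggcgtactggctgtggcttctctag
SUCLA2, chr13:48001224-48001523, minus strand: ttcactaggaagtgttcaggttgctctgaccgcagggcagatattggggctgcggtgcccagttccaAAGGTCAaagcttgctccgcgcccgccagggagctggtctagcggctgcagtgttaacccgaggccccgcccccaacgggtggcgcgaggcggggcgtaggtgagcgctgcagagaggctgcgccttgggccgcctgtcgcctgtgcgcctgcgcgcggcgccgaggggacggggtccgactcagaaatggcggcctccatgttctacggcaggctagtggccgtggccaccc
ME2, chr18:50878868-50879167, plus strand: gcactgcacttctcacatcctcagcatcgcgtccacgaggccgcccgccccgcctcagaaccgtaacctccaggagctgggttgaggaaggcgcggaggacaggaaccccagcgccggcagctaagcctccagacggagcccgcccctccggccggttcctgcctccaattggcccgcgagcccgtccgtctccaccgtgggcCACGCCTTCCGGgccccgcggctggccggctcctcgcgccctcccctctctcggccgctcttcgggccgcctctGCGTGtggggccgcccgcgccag

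The SDHD window held the NRF1 core on both strands as an overlapping palindrome, with an ETS core and an ERR half-site further in. The PDHB window held both hypoxia cores several times, including a palindrome in which ACGTG matches on both strands, and the PDK1 window held ACGTG at 2 places. SUCLA2 showed an ERR half-site, and ME2 showed GCGTG at 2 places, of which the first adjoins an ETS core without sharing a base. Across the 42 windows of the 30 genes, ACGTG occurred in 26.2%, against 21.4% of all 35116 windows in the table, and GCGTG in 61.9%, against 36.5%. The NRF1 core was found in 7.14%, against 3.05%, the ETS core in 14.3%, against 10.3%, and the ERR half-site in 7.14%, against 3.92%. The ATF4 and CHOP element occurred in 0 of the 42 windows, against 3.62% of all, and the antioxidant response core in 11.9%, against 13.3%. Some of the 42 windows overlap, as do those of MPC2 that start at 167937020 and 167937023 on chromosome 1. The same match can therefore count more than once in these shares. A match is a run of letters and not a measured site. The printed windows hold 62.3% (SDHD) to 77% (PDK1) GC. The shares of all windows were not matched for GC content, and the part of base composition in these differences was not tested.

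The libraries held 30370654 to 31513656 counts in the GPT1 group and 21255655 to 32487217 in the control group, control replicate 3 being the shallowest. GPT itself had 96886 to 106063 counts in the GPT1 libraries, against 3 to 14 in the controls, as the labels state. Libraries differed in trends over transcript GC content and length, taken as the Spearman correlation of a library's deviation across 17436 genes. With GC it ran from -0.13 to 0.47 in the GPT1 libraries and from -0.52 (control replicate 3) to 0.09 in the controls. With length it ran from -0.38 to -0.13 in the GPT1 libraries and from 0.06 to 0.30 in the controls. The groups did not overlap in the length trend, so it cannot be told apart from the group. Control replicate 3 was the highest or the lowest control for every one of the 33 genes, the highest for 14 with a median transcript GC of 41.1% and the lowest for 19 with a median of 48.9%. Markers of colorectal epithelium differed too. Of the 13 listed, KRT20, CDX1, GPA33 and CEACAM5 were under the filter in both groups. Their means were at most 0.303 CPM (counts scaled to library depth, here with TMM factors) in the GPT1 libraries and 0.180 CPM in the controls. Of the 9 markers tested 8 were lower, among them VIL1 (3.17 CPM in the GPT1 libraries, 12.3 CPM in the controls), CDH17 (0.945 and 3.97 CPM) and LGALS4 (0.814 and 3.91 CPM). CDX2, an intestinal transcription factor, was the 1 that did not pass, at 45.3 ± 3.56 CPM in the GPT1 libraries and 41.7 ± 4.47 CPM in the controls (SD, n = 3 each). The keratins KRT8 (352 CPM in the GPT1 libraries, 529 CPM in the controls) and KRT18 (171 and 261 CPM in those groups) were the most abundant of the 13 and make up most of their sum. The sum of the 13 markers was 565 to 624 CPM, on total counts, in the GPT1 libraries and 902 to 1027 CPM in the controls. NEFL, NEFM, MAP2, PAX2, LHX1 and IRS4, genes of neural and kidney lineages, summed to 558 to 640 CPM in the GPT1 libraries and 1180 to 1430 CPM in the controls. Of these 6, 4 were lower, and IRS4 alone stood at 404 CPM in the GPT1 libraries and 813 CPM in the controls. Thus 4 of the 13 epithelial markers were near 0 and IRS4 was abundant, while CDX2, KRT8, KRT18 and VIL1 were expressed. The identity of the line is uncertain, and it was not tested. Fibroblast markers summed to 60.0 to 62.0 CPM in the GPT1 libraries and 49.9 to 54.1 CPM in the controls, with 2 of 5 tested higher. Leukocyte markers summed to 2.92 to 3.33 CPM in the GPT1 libraries and 3.26 to 4.42 CPM in the controls, with 1 of 2 tested lower, and endothelial ones stayed under 1 CPM in every library, with 0 of 4 tested. The part of these differences in the results below was not tested, and in bulk RNA fewer cells of a type and less RNA per cell cannot be told apart.

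**Figure D1:**
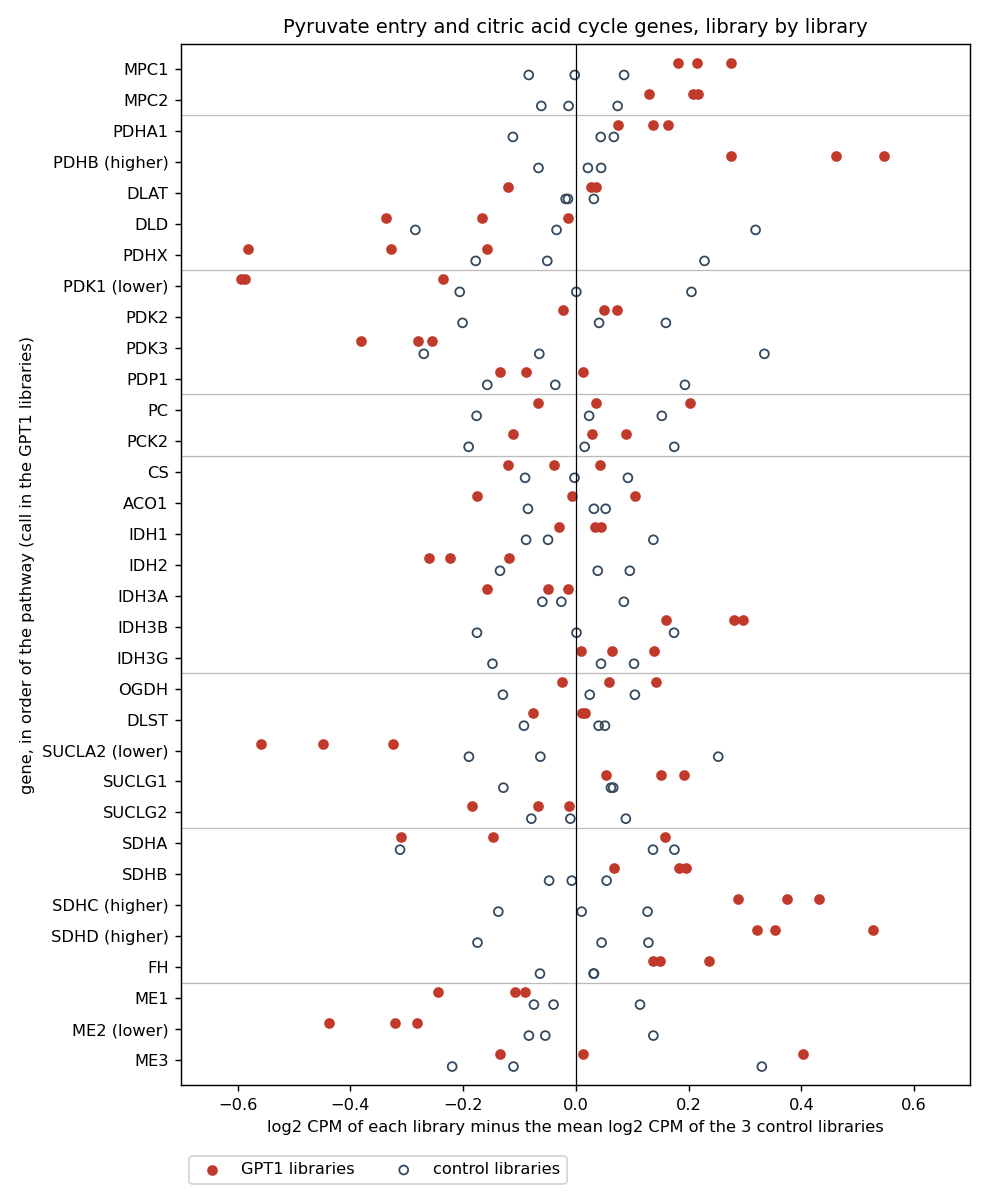
Log2 CPM of each library minus the mean log2 CPM of the 3 control libraries, for 33 genes in the order of the pathway; filled points are GPT1 libraries, open points control libraries, and the call is given beside a gene's name. In 21 of the 33 genes the groups overlap, while PDHB, SDHC and SDHD lie to the right and PDK1, SUCLA2 and ME2 to the left.

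Both subunits of the mitochondrial pyruvate carrier stood slightly above the controls without passing. MPC1 had 41.9, 43.7 and 40.9 CPM in the GPT1 libraries, against 36.1, 38.3 and 34.1 CPM in the controls. MPC2, its partner in the inner membrane, had 98.5, 92.7 and 97.9 CPM in the GPT1 libraries, against 84.0, 89.3 and 81.3 CPM in the controls. For either gene every GPT1 library lay above every control, yet the log2 fold changes of 0.22 ± 0.10 and 0.18 ± 0.08 (SE) had adjusted p = 0.112 and 0.120 (edgeR). Their ratio within a library was steady, with a log2 ratio of MPC1 to MPC2 counts of -1.19 ± 0.09 in the GPT1 libraries and -1.23 ± 0.02 in the controls (SD, n = 3 each).

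Within the pyruvate dehydrogenase complex, the transcript of the E1 beta subunit was called higher, and those of the other 4 subunits did not pass. PDHB, which encodes that subunit (ENSG00000168291, GRCh38 chromosome 3, 58427630 to 58433857, minus strand), had 112, 98.2 and 118 CPM in the GPT1 libraries, against 82.3, 83.7 and 77.5 CPM in the controls. All 3 GPT1 libraries lay above all 3 controls, with GPT1 replicate 2 nearest to them. The rise was 1.35-fold, a log2 fold change of 0.43 ± 0.09 (SE; adjusted p = 0.0103, edgeR). Without GPT1 replicate 3 it no longer passed (adjusted p = 0.0669, log2 fold change 0.37).

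PDHA1, the E1 alpha subunit that PDKs phosphorylate, had 163, 170.2 and 173 CPM in the GPT1 libraries, against 162, 160 and 143 CPM in the controls. The groups just failed to overlap, and the log2 fold change of 0.12 ± 0.08 did not pass (adjusted p = 0.280, edgeR). The log2 ratio of PDHA1 to PDHB counts, which does not depend on library scaling, was 0.55, 0.79 and 0.55 in the GPT1 libraries and 0.98, 0.93 and 0.89 in the controls. It was thus lower in every GPT1 library, by 0.30 ± 0.09 (SE of the difference). An exact two-sided permutation test gave p = 0.1, which is the lowest value possible with 3 libraries a group, and p = 0.4 after adjustment over 16 ratios. With the transcript length and GC offset described further on, the difference was -0.23.

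DLAT, the E2 acetyltransferase core, averaged 94.4 ± 5.61 CPM in the GPT1 libraries and 95.5 ± 1.85 CPM in the controls (SD, n = 3 each), and its 95% interval for the log2 fold change ran from -0.20 to 0.16. DLD is the E3 dehydrogenase, which also serves the alpha-ketoglutarate complex. It had 91.2, 114 and 103 CPM in the GPT1 libraries, against 94.5, 112 and 144 CPM in the controls, of which replicate 3 stood highest. Without that library its log2 fold change was 0.00, beside -0.19 with it, and neither passed. PDHX, the E3-binding protein, had 31.1, 41.7 and 37.0 CPM in the GPT1 libraries, against 44.9, 41.1 and 54.5 CPM in the controls. Its groups overlapped at the margin and its log2 fold change of -0.35 ± 0.14 missed the threshold (adjusted p = 0.0785, edgeR). It passed without control replicate 2 (adjusted p = 0.0416), with no filter on low counts (0.0297) and after both offsets described further on. Per kilobase of transcript, PDHB was the most abundant subunit in the GPT1 libraries at 71.7 CPM per kb, ahead of PDHA1 at 51.0, DLD at 27.3, DLAT at 21.2 and PDHX at 15.3. Per kilobase of coding sequence PDHA1 (144) came before PDHB (102), so the order of these 2 depends on the length used.

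Of the regulators of the complex, the kinase PDK1 was lower. PDK1 (ENSG00000152256, chromosome 2, 172555373 to 172608669, plus strand), known as a target of hypoxia-inducible factor, had 26.6, 33.9 and 26.5 CPM in the GPT1 libraries, against 40.0, 34.6 and 46.1 CPM in the controls. The groups did not overlap, but GPT1 replicate 2 and control replicate 2 lay close together. The level was 0.722 of the control level, a log2 fold change of -0.47 ± 0.14 (SE; adjusted p = 0.0315, edgeR). It missed the threshold without GPT1 replicate 1 (0.120), GPT1 replicate 3 (0.131) or control replicate 1 (0.0772).

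The other kinases did not pass. PDK2, the kinase of widest tissue distribution, had 38.2, 38.8 and 36.3 CPM in the GPT1 libraries, against 38.0, 41.2 and 32.1 CPM in the controls, and the 95% interval of its log2 fold change ran from -0.22 to 0.27. PDK3 had 28.3, 30.9 and 30.4 CPM in the GPT1 libraries, against 35.2, 30.6 and 46.5 CPM in the controls. Control replicate 2 fell inside the GPT1 range, and the log2 fold change of -0.32 ± 0.14 had adjusted p = 0.120 (edgeR; 0.0333 without control replicate 2). The phosphatase gene PDP1 averaged 27.6 ± 1.45 CPM in the GPT1 libraries and 29.1 ± 3.66 CPM in the controls (SD, n = 3 each).

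Ratios within a library set PDK1 against its partners. The log2 ratio of PDK1 to PDP1 counts, the kinase over the phosphatase, was -0.04, 0.21 and 0.00 in the GPT1 libraries and 0.50, 0.41 and 0.47 in the controls. The 2 groups were apart by -0.40 ± 0.08 (SE), with exact permutation p = 0.1 and p = 0.4 adjusted over the 16 ratios; with the transcript offset the difference was -0.20. PDK1 over PDK2 was -0.52, -0.19 and -0.46 in the GPT1 libraries and 0.07, -0.25 and 0.52 in the controls, which overlapped (exact permutation p = 0.2). That difference was -0.51 without the offset and -0.01 with it. PDK1 over PDK3 also overlapped, at -0.05 ± 0.17 in the GPT1 libraries and 0.12 ± 0.11 in the controls (SD, n = 3 each).

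Genes that supply or remove oxaloacetate were level between the groups. PC, the pyruvate carboxylase, had 44.6, 37.0 and 39.8 CPM in the GPT1 libraries, against 39.5, 43.2 and 34.4 CPM in the controls. PCK2, the mitochondrial phosphoenolpyruvate carboxykinase and the most abundant of the 33 genes by CPM, had 406, 353 and 389 CPM in the GPT1 libraries, against 386, 431 and 334 CPM in the controls. Both genes were high and low in the same libraries, so that the log2 ratio of PCK2 to PC counts varied little, 3.24 ± 0.05 in the GPT1 libraries and 3.30 ± 0.02 in the controls (SD, n = 3 each). The log2 fold changes were 0.05 ± 0.12 for PC and -0.00 ± 0.10 for PCK2 (SE), with 95% intervals from -0.20 to 0.31 and from -0.23 to 0.22.

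From citrate to alpha-ketoglutarate, 0 of 7 genes were called by edgeR, and 0 of 7 by DESeq2 or limma voom. Of the 7, IDH3B and IDH2 lay nearest to the threshold, with values given below. CS, the citrate synthase, averaged 274 ± 15.6 CPM in the GPT1 libraries and 282 ± 17.8 CPM in the controls. ACO1, the cytosolic aconitase that doubles as an iron-responsive RNA-binding protein, averaged 60.6 ± 5.87 CPM in the GPT1 libraries and 61.5 ± 3.12 CPM in the controls. IDH1, the cytosolic NADP-dependent enzyme, averaged 62.8 ± 1.74 CPM in the GPT1 libraries and 62.2 ± 5.31 CPM in the controls (SD, n = 3 each throughout). All 3 had log2 fold changes of no more than 0.04 in size.

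IDH2 is the mitochondrial NADP-dependent counterpart of IDH1. It had 149.6, 135.5 and 139 CPM in the GPT1 libraries, against 173, 167 and 148 CPM in the controls. Control replicate 3 lay below GPT1 replicate 1, giving a log2 fold change of -0.20 ± 0.09 SE (edgeR, adjusted p = 0.109). It passed without control replicate 3 (adjusted p = 0.0392). The NAD-dependent enzyme of the cycle is built from IDH3A, its catalytic subunit, with IDH3B and IDH3G. IDH3A averaged 106 ± 5.40 CPM in the GPT1 libraries and 112 ± 5.93 CPM in the controls, and IDH3G 85.3 ± 3.86 CPM in the GPT1 libraries and 81.3 ± 7.24 CPM in the controls. IDH3B had 178, 162 and 176 CPM in the GPT1 libraries, against 145, 163 and 128 CPM in the controls. Control replicate 2 sat above GPT1 replicate 2, and the log2 fold change of 0.24 ± 0.10 missed the threshold (adjusted p = 0.0934; 0.0311 without control replicate 2, edgeR). The log2 ratio of IDH3A to IDH3B counts was -0.69 ± 0.14 in the GPT1 libraries and -0.37 ± 0.24 in the controls (SD, n = 3 each), with overlapping groups (exact permutation p = 0.2). IDH3G overlaps SSR4 on the opposite strand by 1008 bases, and without a stated strand setting reads of that stretch cannot be assigned. SSR4 was higher in the GPT1 libraries (199.6 ± 20.4 CPM, against 148 ± 18.1 CPM in the controls; log2 fold change 0.43, adjusted p = 0.0182, edgeR). The same limit holds for DLD, which overlaps LAMB1 by 7932 bases (LAMB1 log2 fold change -0.52, adjusted p = 0.00945, edgeR), and for CS, which overlaps the antisense gene CNPY2-AS1 by 251 bases (0.82, adjusted p = 0.00873).

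Between alpha-ketoglutarate and succinate, 1 of 5 genes was called, a subunit of succinyl-CoA synthetase. SUCLA2, the beta subunit of the form that makes ATP (ENSG00000136143, chromosome 13, 47745736 to 48037968, minus strand), had 37.5, 40.9 and 34.8 CPM in the GPT1 libraries, against 44.9, 49.1 and 61.0 CPM in the controls. All GPT1 libraries lay below all controls. The level was 0.731 of that in the controls, a log2 fold change of -0.45 ± 0.13 (SE; adjusted p = 0.0264, edgeR), which did not pass without GPT1 replicate 1 (0.0875) or GPT1 replicate 3 (0.117). SUCLG2, the beta subunit of the form that makes GTP, had 54.1, 61.0 and 58.7 CPM in the GPT1 libraries, against 58.3, 61.1 and 65.4 CPM in the controls, and its log2 fold change was -0.09 ± 0.09 (adjusted p = 0.509, edgeR). The log2 ratio of SUCLA2 to SUCLG2 counts was -0.53, -0.58 and -0.76 in the GPT1 libraries and -0.37, -0.32 and -0.10 in the controls. Again no library crossed over, and the difference was -0.36 ± 0.11 (SE; exact permutation p = 0.1, and 0.4 adjusted over the 16 ratios), or -0.32 with the transcript offset. The shared alpha subunit gene SUCLG1 averaged 108 ± 5.29 CPM in the GPT1 libraries and 98.8 ± 7.45 CPM in the controls.

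The alpha-ketoglutarate dehydrogenase genes did not differ past the threshold. OGDH, the E1 enzyme, had 116, 109 and 122 CPM in the GPT1 libraries, against 113, 119 and 101 CPM in the controls. DLST, the E2 succinyltransferase, averaged 243 ± 8.71 CPM in the GPT1 libraries and 246 ± 13.4 CPM in the controls (SD, n = 3 each). The 95% intervals of their log2 fold changes ran from -0.14 to 0.26 and from -0.19 to 0.15.

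Succinate dehydrogenase, which is also respiratory complex II, showed higher transcripts of both membrane anchors. SDHC, the larger anchor (ENSG00000143252, chromosome 1, 161314257 to 161375340, plus strand), had 156, 147 and 162 CPM in the GPT1 libraries, against 121, 131 and 109 CPM in the controls. SDHD, the smaller anchor (ENSG00000204370, chromosome 11, 112086773 to 112120013, plus strand), had 35.5, 36.3 and 40.9 CPM in the GPT1 libraries, against 25.2, 29.3 and 31.1 CPM in the controls. The groups did not overlap for either gene. The log2 fold changes were 0.36 ± 0.09 for SDHC (1.28-fold, adjusted p = 0.0185) and 0.40 ± 0.12 for SDHD (1.32-fold, adjusted p = 0.0298; SE, edgeR). SDHC missed the threshold without GPT1 replicate 1 (0.0687), GPT1 replicate 3 (0.0920) or control replicate 1 (0.0533), and SDHD without the same libraries (0.0682, 0.143 and 0.106). The log2 ratio of SDHD to SDHC counts was -2.04 ± 0.08 in the GPT1 libraries and -2.08 ± 0.24 in the controls (SD, n = 3 each).

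SDHB, the iron-sulfur subunit, had 124, 113 and 123 CPM in the GPT1 libraries, against 107, 112 and 105 CPM in the controls. GPT1 replicate 2 exceeded control replicate 2 only slightly, and the log2 fold change of 0.15 ± 0.08 did not pass (adjusted p = 0.192, edgeR). SDHA, the flavoprotein subunit, held just 78, 106 and 86 counts in the GPT1 libraries and 112, 79 and 76 in the controls, about 3 CPM. Its near-identical copies SDHAP1, SDHAP3 and SDHAP4 held 162 to 476 counts per library, and no source states how reads shared among these copies were counted, so the SDHA level is uncertain. FH, the fumarase, had 93.8, 94.6 and 100.4 CPM in the GPT1 libraries, against 87.2, 87.2 and 81.6 CPM in the controls. Its groups were separate, with a log2 fold change of 0.17 ± 0.08 (adjusted p = 0.135, edgeR).

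SDHD shares its start with a neighbour: TIMM8B, a chaperone of mitochondrial import, begins 25 bases away on the other strand, and both genes overlap by 26 bases. TIMM8B stood at 101 ± 7.68 CPM in the GPT1 libraries and 63.8 ± 8.31 CPM in the controls (SD, n = 3 each), a log2 fold change of 0.66 ± 0.11 (SE; adjusted p = 0.00294, edgeR). The SDHD window printed above therefore faces both genes. PIKFYVE begins 193 bases from the outer end of the annotated IDH1 gene, at 208266074 on chromosome 2. The RefSeq windows of IDH1 lie further in, at 208254409 to 208254708 and 208255022 to 208255321. The 193 bases are thus not the distance from PIKFYVE to those RefSeq starts. PIKFYVE was lower, at 26.2 ± 7.19 CPM in the GPT1 libraries and 42.8 ± 9.88 CPM in the controls (SD, n = 3 each). Its log2 fold change was -0.71 (adjusted p = 0.0309, edgeR), while that of IDH1 was 0.01. DLAT lies upstream of SDHD on chromosome 11 (112024814 to 112064390) and had a log2 fold change of -0.02.

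Among the malic enzymes, which turn malate into pyruvate, the mitochondrial NAD-dependent ME2 was lower. ME2 (ENSG00000082212, chromosome 18, 50878734 to 50954257, plus strand) had 52.1, 58.2 and 56.6 CPM in the GPT1 libraries, against 68.1, 66.7 and 77.7 CPM in the controls. No GPT1 library reached a control. The level was 0.786 of that in the controls, a log2 fold change of -0.35 ± 0.10 (SE; adjusted p = 0.0255, edgeR). It did not pass without GPT1 replicate 1 (0.112), GPT1 replicate 3 (0.0916), control replicate 1 (0.0587) or control replicate 3 (0.0505). ME1, the cytosolic NADP-dependent enzyme, had 43.2, 47.5 and 48.1 CPM in the GPT1 libraries, against 48.6, 49.8 and 55.4 CPM in the controls, also without overlap but with a log2 fold change of only -0.15 ± 0.10 (adjusted p = 0.280, edgeR). The log2 ratio of ME1 to ME2 counts was -0.27, -0.29 and -0.23 in the GPT1 libraries and -0.49, -0.42 and -0.49 in the controls. That difference, 0.20 ± 0.03 (SE), had exact permutation p = 0.1, and 0.4 adjusted over the 16 ratios. With the transcript offset it was 0.06. ME3, a mitochondrial NADP-dependent form, stood at 2.21 ± 0.44 CPM in the GPT1 libraries and 2.08 ± 0.44 CPM in the controls (SD, n = 3 each).

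**Figure D2:**
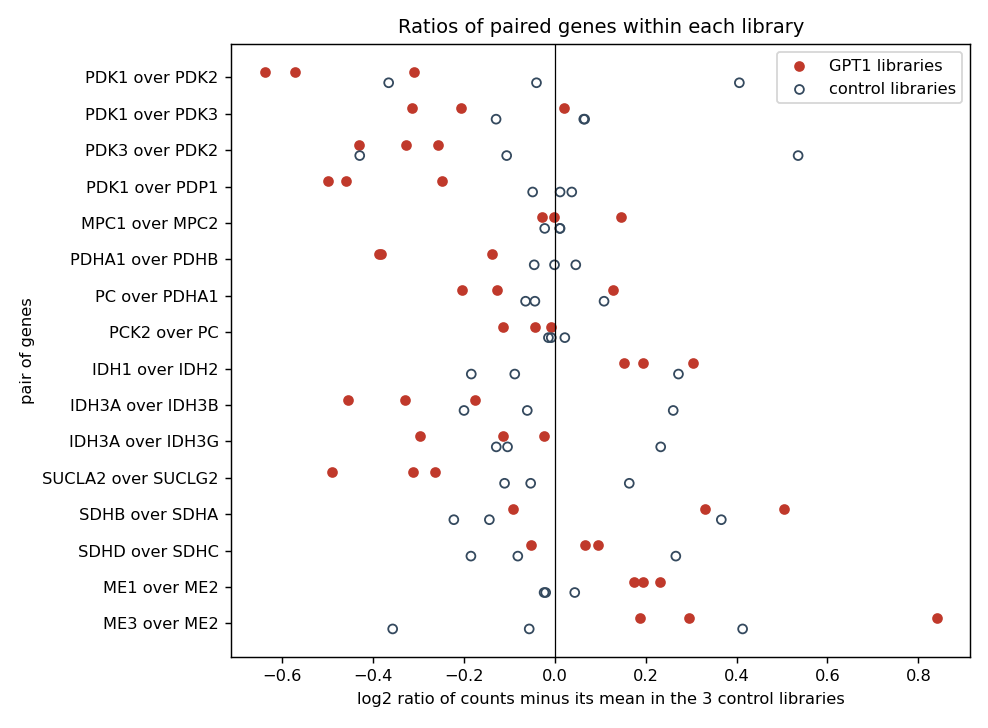
Log2 ratio of the counts of 2 genes in a library, minus its mean in the 3 control libraries, for 16 pairs of isoenzymes, subunits or opposing enzymes; filled points are GPT1 libraries and open points control libraries. PDK1 over PDP1, PDHA1 over PDHB, SUCLA2 over SUCLG2 and ME1 over ME2 are the pairs whose groups do not overlap.

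In 4 of the 16 ratios the groups did not overlap, and each of the 4 contains a gene that was itself called, so these ratios restate those calls on a scale free of library size. By library values, 8 of the 33 lay wholly higher in the GPT1 libraries (24.2%), beside 21.2% of all tested genes, and 4 lay wholly lower (12.1%), beside 22.2%. For 25 of the 27 genes without a call, the 95% interval of the fold change stayed within 1.5-fold in either direction. PDHX, with an interval from -0.65 to -0.05 on the log2 scale, and PDK3, from -0.64 to -0.00, are the 2 exceptions. These intervals belong to the fit without an offset and do not cover trends over length and GC content. With the transcript offset the log2 fold changes of DLAT (0.18), PDP1 (0.21) and ME1 (0.12) lay above their upper bounds of 0.16, 0.19 and 0.07. That of ME1 lay above its bound with the coding offset too (0.10). SDHA, whose level is uncertain, is among the 25.

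Fold changes across the 33 genes went with the length of the transcripts, as they did across all genes. The Spearman correlation of log2 fold change with transcript length was -0.46 for the 33 genes and -0.33 over 17436 tested genes; with transcript GC content it was 0.32 and 0.31. These describe genes measured in the same 6 libraries, which are not independent replicates. With coding length the correlation was -0.50 for the 33 genes and -0.29 over the tested genes that have a coding length. SDHD and SDHC code for 477 and 507 bases, while SUCLA2 (1389), PDK1 (1308) and ME2 (1752) have longer coding sequences. In transcript GC content the called genes lie close together, with SDHD at 41.0%, SDHC at 42.6% and PDHB at 44.5%, beside 39.8% to 40.6% in SUCLA2, PDK1 and ME2.

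**Figure D3:**
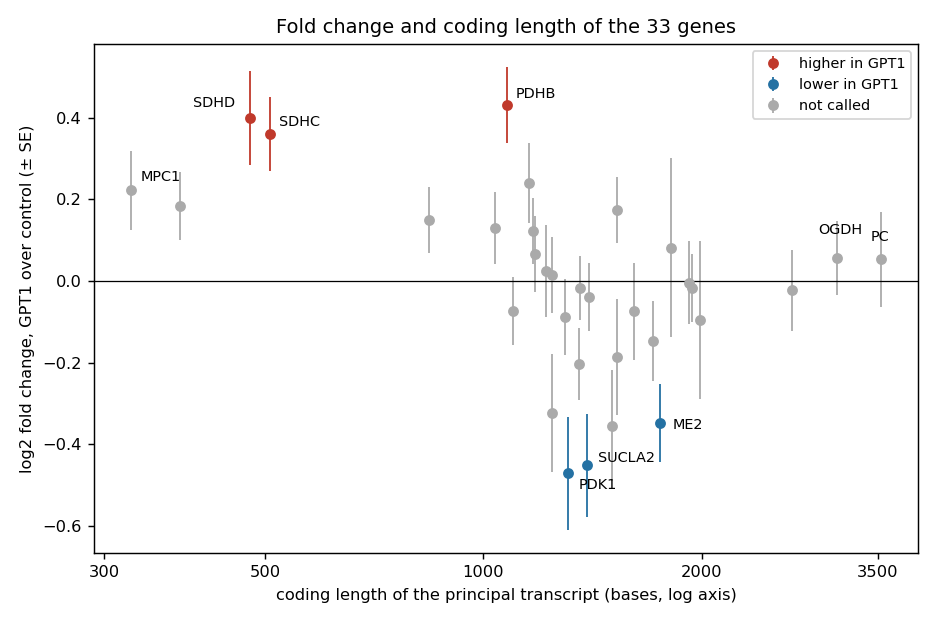
Log2 fold change, GPT1 over control, with its standard error, against coding length on a log axis for the 33 genes, coloured by call. The called genes with short coding sequences, SDHD and SDHC, lie above 0 and the 3 lower genes lie between 1308 and 1752 bases, while PC and OGDH, the longest, lie near 0.

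Each library was therefore also corrected for these trends with an offset fitted over length and GC content. With transcript length and GC, 6 of the 33 genes were higher, beside 19.0% of all tested genes, and 4 were lower, beside 16.0%. With coding length and coding GC, an alternative chosen after seeing the data, 4 were higher, beside 22.1% of 13934 genes, and 3 were lower, beside 18.3%. Among all genes the offset turned the balance of calls, from 1858 higher and 2572 lower without it to 3351 higher and 2829 lower with transcript length and GC. PDHB and SDHC were the 2 genes called in the same direction in all 3 fits. PDHB had log2 fold changes of 0.41 and 0.48 with the transcript and the coding offset (adjusted p = 0.00321 and 0.0011, edgeR), and SDHC 0.73 and 0.26 (0.00196 and 0.00687). The transcript offset of SDHC and of PDK1 rests on annotated principal transcripts of 13566 and 14193 bases.

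The other 4 calls depended on the offset. PDK1 kept its call with the coding offset (-0.40, adjusted p = 0.00685, edgeR) but had a log2 fold change of 0.02 with the transcript offset. SUCLA2 passed with the transcript offset (-0.26, adjusted p = 0.00988) and just missed with the coding one (-0.20, 0.0516), as did SDHD (0.49, 0.00123, and 0.27, 0.0515). ME2 passed with neither (0.06 and -0.00). Other genes entered. IDH2 was lower with either offset (-0.27 and -0.24, adjusted p = 0.00161 and 0.00539), as was PDHX (-0.26 in both, 0.0307 and 0.0405). MPC2, DLAT and PDP1 were higher and PDK3 lower with the transcript offset alone, and IDH3B and FH higher with the coding offset alone. Without a call in any of the 3 fits were 19 genes, among them CS, ACO1, IDH1, IDH3A, IDH3G, OGDH, DLST, SUCLG1, SUCLG2, PC and PCK2.

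**Figure D4:**
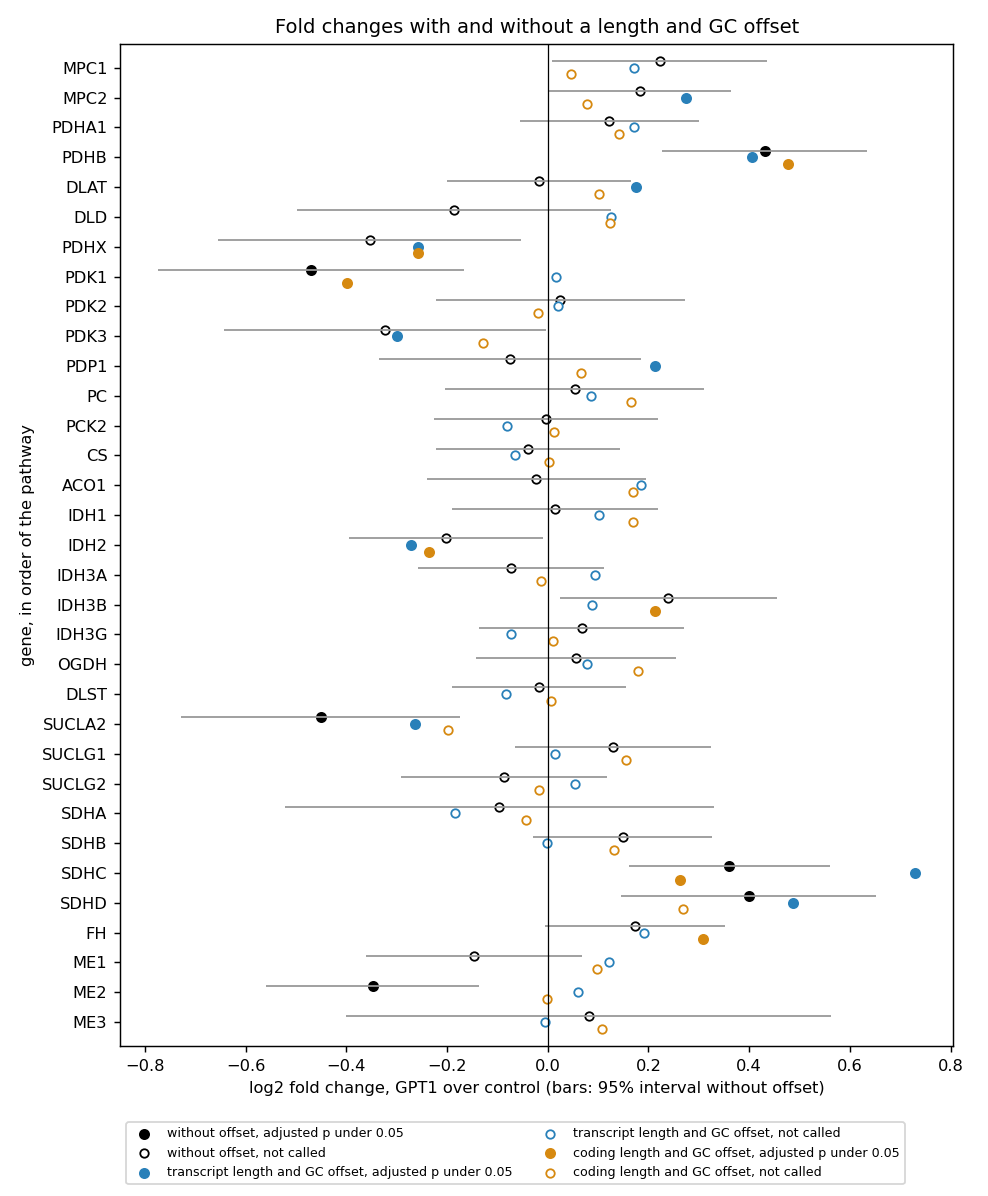
Log2 fold change, GPT1 over control, of the 33 genes without an offset (black, with its 95% interval), with the transcript length and GC offset (blue) and with the coding length and GC offset (orange); filled points have an adjusted p under 0.05. PDHB and SDHC are filled in all 3 fits, and PDK1 and ME2 lie near 0 with the transcript offset.

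Genes around the pathway were called about as often as the 33, and neither list exceeded the 25.1% of all tested genes. A list of 44 others covered lactate and pyruvate supply, regulators, cycle enzymes outside the 33, lipoate synthesis, succinate dehydrogenase assembly, metabolite carriers and uses of citrate and glutamate. Of these 43 were tested, and 5 were higher and 4 lower (20.9% called, median log2 fold change -0.00). By direction 11.6% were higher, beside 10.5% of all tested genes, and 9.3% lower, beside 14.6%. MDH2, the mitochondrial malate dehydrogenase, did not pass, at 429.9 ± 13.7 CPM in the GPT1 libraries and 431 ± 43.2 CPM in the controls (SD, n = 3 each). PCK1, the cytosolic carboxykinase, fell the most of the 4, at 6.47, 6.10 and 6.15 CPM in the GPT1 libraries, against 14.3, 11.5 and 20.9 CPM in the controls (log2 fold change -1.31 ± 0.20 SE, adjusted p = 0.00178, edgeR). SLC16A3, the lactate exporter MCT4, had 6.08, 5.21 and 6.44 CPM in the GPT1 libraries, against 14.2, 12.7 and 10.2 CPM in the controls (-1.07 ± 0.16, adjusted p = 0.00145). Both were low-level genes whose groups stood well apart.

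LDHA, the lactate dehydrogenase subunit that favours lactate, averaged 648 ± 22.3 CPM in the GPT1 libraries and 805 ± 108 CPM in the controls (log2 fold change -0.31 ± 0.10 SE, adjusted p = 0.0443, edgeR). CRAT, the carnitine acetyltransferase, was lower as well (-0.39 ± 0.10, adjusted p = 0.0239). SDHAF2, which attaches flavin to SDHA, was higher, at 4.86, 4.33 and 4.05 CPM in the GPT1 libraries, against 2.32, 2.48 and 2.36 CPM in the controls (0.89 ± 0.15, adjusted p = 0.00403). The iron-sulfur assembly genes IBA57 (0.54 ± 0.13, adjusted p = 0.0158) and BOLA3 (0.42 ± 0.11, adjusted p = 0.0219), both needed for lipoate synthesis, rose too. So did SLC25A13, the aspartate-glutamate carrier citrin (0.42 ± 0.10, adjusted p = 0.0139), and ACLY, the ATP citrate lyase (0.24 ± 0.08, adjusted p = 0.0472). PCK1, SLC16A3 and SDHAF2 passed whichever library was left out, at an adjusted p of no more than 0.0224. SLC25A13 did not pass without GPT1 replicate 3 (0.0823), nor IBA57 and BOLA3 without GPT1 replicate 1 (0.0724 and 0.0853) or GPT1 replicate 3 (0.0609 and 0.0827). CRAT did not pass without GPT1 replicates 1, 2 or 3 (0.0720, 0.0763 and 0.0787) or control replicate 1 (0.102). ACLY lost its call without GPT1 replicates 1 or 3 (0.142 and 0.190) or control replicates 1 or 3 (0.102 and 0.0771). LDHA lost it without GPT1 replicates 1, 2 or 3 (0.133, 0.113 and 0.105) or control replicates 1 or 3 (0.201 and 0.0527). LDHA also missed the threshold with RLE size factors (0.0532), upper-quartile factors (0.0727) or the coding offset (0.0990). ACLY missed it with no filter on low counts (0.0755), and BOLA3 with the transcript offset (0.0574).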

How the data were processed

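Total RNA extracted with Trizol was made into mRNA libraries, per the labels' protocols. The authors deposited whole-number read counts, not normalized, for each Ensembl gene in 6 libraries. Reads were aligned with HISAT2 2.0 to GRCh38, per the submitters' processing notes. Which tool, annotation and strand setting produced the counts is not stated in those sources. Symbols came from a name table (60463 of 60664 identifiers), and coordinates, lengths and GC content from GENCODE 29 (longest APPRIS principal transcript, else the longest; its coding part for the coding offset).

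Genes were kept by filterByExpr (17638) and compared with edgeR 4.0.16 in R 4.3.3 (TMM factors, glmQLFit, glmQLFTest, two-sided, Benjamini-Hochberg over all tested genes, threshold 0.05). Standard errors and 95% intervals were derived from the fold change and its F statistic. Length and GC offsets were smooth fits (mgcv 1.9.3) to each library's log2 deviations; 98.9% of tested genes had both values, and the coding offset used genes with a coding length. Ratios of 2 genes used log2 counts and an exact permutation test of 3 against 3. Replicates differed well beyond sampling noise (chi-square per degree of freedom 9.98 to 30.8). The named genes are all 33 members, GPT, called genes of the surrounding list and markers at or near 0; others (MDH2, neighbours, pseudogene copies) were named after their values were seen. Members, lists and motifs were chosen with earlier results of these data known. DESeq2 1.42.0 and limma voom 3.58.1 were alternatives.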

Additional observations from a re-analysis of the deposited data

How the results depend on the processing

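The number of genes called rests on few libraries: all tested genes called fell to 1586 (8.80%) without GPT1 replicate 1, 1443 (7.98%) without GPT1 replicate 3 and 2565 (14.2%) without control replicate 1, beside 4430. With 1 library left out, 0 to 4 of the 33 genes were called higher and 0 to 5 lower. The 4 higher and 5 lower came without control replicate 2, where 4907 of 18090 tested genes (27.1%) were called. Of the surrounding genes, 1 to 6 were higher and 2 to 6 lower. At an adjusted p of 0.01, 0 of the 33 were higher and 0 lower, and 1 and 2 of the surrounding genes, while 1172 of 17638 tested genes (6.64%) were called. The transcript length and GC offset gave 6 higher among the 33, beside 19.0% of all tested genes. It gave 8 lower among the 43 surrounding genes tested, beside 16.0% of all tested genes. The coding offset, chosen after seeing the data, gave 10 higher among the 43 surrounding genes, beside 22.1% of 13934 genes. The median log2 fold change of the 33 genes was 0.0779 with the transcript offset, 0.0777 with it and the replicate number as a block, and 0.0784 with the coding offset.

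The labels do not say whether the replicate numbers pair the samples. Deviations of same-numbered libraries correlated at 0.14, -0.28 and -0.08, which with 3 libraries a group cannot decide whether samples were paired. As a block the replicate numbers left 3886 of 17638 genes called. Of the 33, the block ended the call of ME2 (edgeR, adjusted p = 0.0518), and of the surrounding genes those of LDHA (0.0766) and ACLY (0.136). The log2 fold change of PCK2 turned to 0.00188.

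Signs of uncalled genes, and of the called PDK1 and ME2, turned as follows, and causes were not tested. Among these uncalled genes DLD (-0.19), SDHB (0.15) and ME1 (-0.15) stood furthest from 0 in the fit without an offset. With the transcript offset the log2 fold change was 0.18 for DLAT, 0.12 for DLD, 0.0157 for PDK1, 0.21 for PDP1, 0.18 for ACO1, 0.0945 for IDH3A, -0.0725 for IDH3G, 0.0531 for SUCLG2, -0.00258 for SDHB, 0.12 for ME1, 0.0594 for ME2 and -0.00468 for ME3. With the block as well it was 0.18 for DLAT, 0.13 for DLD, 0.0161 for PDK1, 0.21 for PDP1, 0.19 for ACO1, 0.0948 for IDH3A, -0.0729 for IDH3G, 0.0542 for SUCLG2, -0.00349 for SDHB, 0.12 for ME1 and 0.0609 for ME2. With the coding offset it was 0.10 for DLAT, 0.12 for DLD, -0.0192 for PDK2, 0.066 for PDP1, 0.0124 for PCK2, 0.00336 for CS, 0.17 for ACO1, 0.00644 for DLST and 0.10 for ME1. Upper-quartile factors gave 0.0209 for DLAT, 0.0348 for PCK2, 0.015 for ACO1 and 0.021 for DLST, size factors 0.00969 and DESeq2 0.00811 for PCK2, and total counts -0.000546 for IDH1.

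With 1 library left out, log2 fold changes spanned -0.0443 to 0.0323 for DLAT, -0.31 to 0.00251 for DLD, -0.0528 to 0.11 for PDK2, -0.15 to 0.0408 for PDP1, -0.0217 to 0.13 for PC, -0.0779 to 0.086 for PCK2, -0.0811 to 0.0173 for CS, -0.0899 to 0.0499 for ACO1, -0.0219 to 0.10 for IDH1, -0.047 to 0.0326 for DLST, -0.24 to 0.00541 for SDHA and -0.0886 to 0.27 for ME3. Differences of ratios spanned -0.0143 to 0.0726 for MPC1 over MPC2, -0.17 to 7.57e-06 for PC over PDHA1 and -0.0562 to 0.17 for SDHD over SDHC. With the offset they were 0.31 for PDK1 over PDK3, -0.10 for MPC1 over MPC2, 0.00618 for IDH3A over IDH3B, 0.17 for IDH3A over IDH3G, -0.26 for SDHD over SDHC and -0.0618 for ME3 over ME2. SDHA and ME3, at 2 to 3 CPM, are the least precise of the 33, with standard errors of 0.19 and 0.22.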
